A study of Homo sapiens with 27 samples.

Results

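The comparison described here set LNCaP95 cells against their parental line LNCaP, both carrying a control hairpin and neither depleted of any factor. Its members were chosen by label: the 3 LNCaP95 CTRL sh and the 3 LNCaP CTRL sh libraries, 6 of the 27 RNA-seq libraries of a study of CPSF1 knockdown in prostate cancer cells, with no knockdown library among them. LNCaP is an androgen-responsive line from a lymph node metastasis of prostate cancer. LNCaP95 was derived from it by long culture in androgen-depleted medium and grows without androgen. The counts used here are per gene and do not separate transcript variants.

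CTRL sh stands for a non-silencing pGIPZ lentiviral hairpin, and transduced cells were selected with puromycin. Cultures of both lines began from 500000 cells in a well and were taken after 72 h in medium with 10% fetal bovine serum. LNCaP was kept in RPMI and selected at 2 µg/mL puromycin, while LNCaP95 was kept in phenol red-free RPMI. The labels name no line for the second puromycin dose, 1 µg/mL, which by elimination was that of LNCaP95. LNCaP came from a repository and LNCaP95 from another laboratory. Line, medium, selection dose and source therefore moved together and cannot be told apart, and each line was 1 culture lineage, so the p-values below measure the spread between replicate cultures of these lines.

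Androgen signaling, together with the pioneer factor FOXA1 and with HOXB13, switches on luminal genes such as KLK3, which encodes prostate-specific antigen, and holds others down. Cells that outlive androgen withdrawal are known to change their hormone signaling, their metabolism and their cell cycle control, which is why a derived line and its parent are set side by side. The baseline difference is also the backdrop to the study's other libraries of the same lines, which were depleted of CPSF1.

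The 6 libraries held 10675551 to 14479943 counted fragments, and the most abundant gene took 0.334% to 0.373% of a library. Mitochondrial genes made up 1.62% to 1.90% of the counts. The biological coefficient of variation over genes was 4.16%, so small differences passed the test. For that reason the counts of calls within gene lists are to be read against the shares of all tested genes called, given below, and changes over 2-fold are counted separately.

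Luminal prostate markers were present in both lines. Each of the 10 luminal markers passed the filter, and their summed level was 5535 to 5618 CPM (counts scaled to library size) in LNCaP and 6371 to 6560 CPM in LNCaP95. Of 5 basal markers only TRIM29 passed, with a summed level for the list of 4.15 to 4.71 CPM in LNCaP and 4.61 to 5.98 CPM in LNCaP95, and TP63 was at 0 in every library. Among 24 neuroendocrine and neuronal genes 6 passed, of which 3 were higher in LNCaP95 (50%) and 2 lower (33.3%). The summed level of this list was 167 to 188 CPM in LNCaP and 247 to 276 CPM in LNCaP95. CHGB and NEUROD1 were at 0 in both lines, and CHGA and INSM1 stayed below 0.1 CPM. Of the fibroblast, endothelial and immune markers, 4 of 13 measured passed, while PTPRC, CD3E, CDH5, DCN and COL1A2 were at 0 in all 6 libraries.

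Across 11795 genes tested, 4640 were higher in LNCaP95 (39.3%) and 4779 lower (40.5%), 79.9% in all, at a Benjamini-Hochberg adjusted p below 0.05 in edgeR's quasi-likelihood test. The 2 lines' libraries did not overlap for 80.6% of the genes. Over 2-fold differences were found for 1100 higher genes (9.33%) and 1228 lower genes (10.4%), 19.7% in all. At 16-fold, 122 genes were higher and 165 lower. The median log2 fold change, always LNCaP95 minus LNCaP, was -0.0039 over all tested genes and its median size was 0.44. TMM scaling sets that median near 0, so a shift of all genes together could not be seen. Through LNCaP alone 518 tested genes passed the filter, and through LNCaP95 alone 368, which favored falls for the former and rises for the latter. Such genes also occur in the gene lists below. Raising the filter to 2 CPM in all 6 libraries left 807 genes over 2-fold lower.

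**Figure D1:**
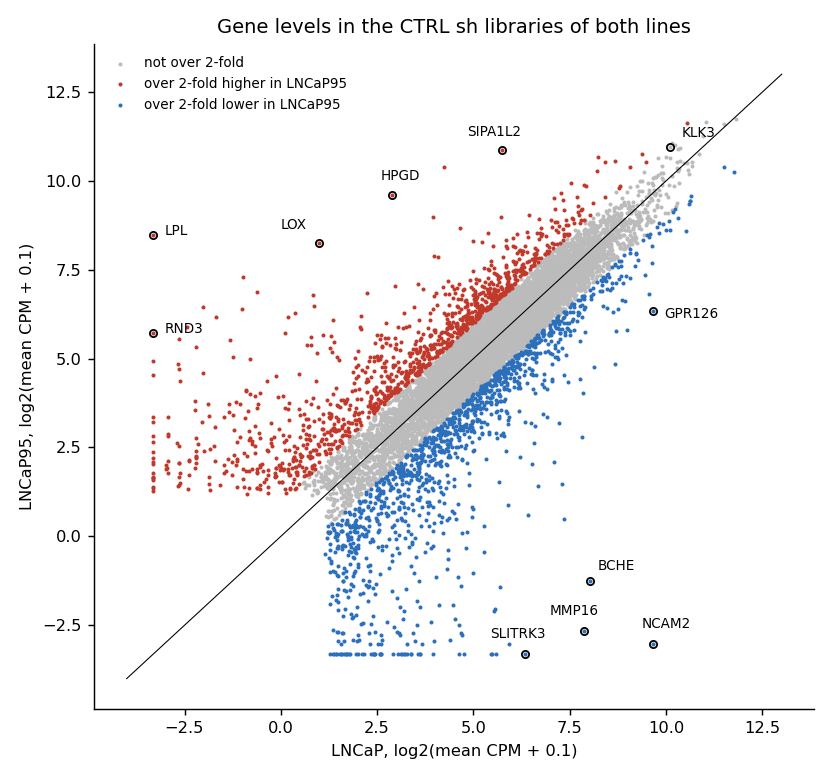
Mean level of each tested gene in LNCaP (horizontal axis) and LNCaP95 (vertical axis), both as log2 of mean CPM plus 0.1, with 3 CTRL sh libraries a line; the 10 tested genes on chromosome Y or equal to XIST are not plotted. Most genes lie along the diagonal, while LPL and RND3 sit at the left edge with no count in LNCaP and NCAM2, MMP16 and SLITRK3 at the bottom.

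The sharpest differences were genes that were on in only a single line. There were 25 genes with at least 10 CPM in LNCaP and at most 3 counts over the LNCaP95 libraries, and 11 with the reverse pattern. NCAM2, a neural cell adhesion molecule on chromosome 21, read 845, 813 and 786 CPM in LNCaP, and LNCaP95 held a single count in 3 libraries. The counting ratio was 29589, with a 95% interval from 5310 to 1168800. MMP16, a membrane-anchored matrix metalloproteinase, fell from 236 ± 8.23 CPM (SD, n = 3) to 2 counts. SLITRK3, a neuronal transmembrane protein, had 80.2, 80.6 and 81.6 CPM in LNCaP and no count in LNCaP95, at least 979-fold lower.

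FUCA2, a fucosidase, was at 44.9 ± 1.02 CPM in LNCaP and at least 544-fold lower, and the zinc finger factor SALL2 was at least 531-fold lower. H2AFJ, a histone H2A variant, was at least 581-fold lower. The chaperone CLU read 12.2 ± 1.59 CPM in LNCaP and 0 counts in LNCaP95, and the ephrin receptor EPHA7 10.2 ± 0.544 CPM and 0 counts. FUCA2, SALL2, H2AFJ, CLU and EPHA7 had no count in any LNCaP95 library, where 3 counts over the group correspond to 0.0826 CPM.

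In the other direction LPL, lipoprotein lipase, had no count in LNCaP and 349, 384 and 342 CPM in LNCaP95, at least 4087-fold higher. RND3, an atypical small GTPase, read 51.0, 54.5 and 52.0 CPM in LNCaP95 only, at least 599-fold higher. ANKRD30A was at least 265-fold and NAA11 at least 344-fold higher. No LNCaP library held a count of any of these genes. CCND2, a D-type cyclin, rose from 0.118 ± 0.133 CPM to 39.8 ± 0.503 CPM, and CREB3L1, a membrane-bound transcription factor, went from 2 counts to 28.8 ± 2.48 CPM.

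Among genes above 50 CPM in both lines, SIPA1L2, which encodes a Rap GTPase-activating protein, rose the most. It read 51.1, 53.4 and 56.2 CPM in LNCaP and 1923, 1817 and 1891 CPM in LNCaP95, a log2 fold change of 5.13. BHLHE40, a basic helix-loop-helix repressor, rose by 3.26, UGDH, which makes UDP-glucuronic acid, by 2.58, and LIFR, the leukemia inhibitory factor receptor, by 2.50. HSD11B2, which inactivates cortisol, rose by 2.40 from 69.5 ± 2.18 to 367 ± 33.5 CPM. NUPR1, a stress-induced chromatin protein, rose by 2.44.

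The largest fall at that abundance was that of GPR126, an adhesion G protein-coupled receptor, from 809 ± 20.8 to 80.9 ± 7.38 CPM, a log2 fold change of -3.32. FBXL17, an F-box protein, fell by 3.18 and UTRN, the dystrophin-related utrophin, fell by 2.94. IMPDH2, which makes guanine nucleotides, fell from 492 ± 14.4 to 98.5 ± 2.06 CPM. KDM6A, a histone H3 lysine demethylase, fell from 394 ± 15.1 to 79.6 ± 0.934 CPM. For each of these genes the libraries of the lines did not overlap.

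Of 31 androgen-induced genes tested, 14 were higher (45.2%, against 39.3% of all genes) and 13 lower (41.9%, against 40.5%), with a median of 0.04. The list as a whole was thus close to the background in the CTRL sh libraries. KLK3 rose from 1061, 1131 and 1099 CPM to 1946, 1960 and 1988 CPM, by 0.84 ± 0.040. The libraries of the lines were apart for this gene.

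Other androgen-induced genes moved much further. HPGD, the prostaglandin-degrading dehydrogenase, read 6.63, 6.80 and 8.55 CPM in LNCaP and 732, 824 and 788 CPM in LNCaP95, a log2 fold change of 6.73. The cold-sensing channel TRPM8 rose by 3.33, from 31.4 ± 1.66 to 316 ± 10.7 CPM. FKBP5, a cochaperone of steroid receptors, rose by 1.86, NDRG1 by 1.86 and TMPRSS2, a membrane serine protease, by 0.61. The retinaldehyde dehydrogenase ALDH1A3 instead fell from 97.2 ± 0.950 to 8.58 ± 0.892 CPM, with a log2 fold change of -3.51, and CHRNA2, a nicotinic receptor subunit, fell by 3.69. KLK2 rose by 0.11 (adjusted p = 0.029), a call that was lost with library size alone and without LNCaP replicate 1, LNCaP replicate 3 or LNCaP95 replicate 1.

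None of the 8 androgen-repressed genes tested was higher and 6 were lower (75%, against 40.5% of all genes), with a median of -1.11. BCHE, butyrylcholinesterase, read 261, 261 and 257 CPM in LNCaP and 0.140, 0.435 and 0.379 CPM in LNCaP95, a log2 fold change of -9.69. The opioid receptor gene OPRK1 had 5.95 ± 0.680 CPM in LNCaP and no count in LNCaP95, at least 72.1-fold lower. BCHE and OPRK1 passed the filter through LNCaP alone, so the filter favored their falls, and 3 of the 11 listed genes did not pass it. FOLH1, which encodes prostate-specific membrane antigen, fell from 975, 938 and 976 CPM to 423, 473 and 438 CPM, with a log2 fold change of -1.11. UGT2B15 and UGT2B17, which conjugate androgens with glucuronic acid, changed by -1.10 and -1.17. These 2 genes are close to identical in sequence, so how their fragments were divided is uncertain. Their relative UGT2B10 fell by 3.20, whereas UGT2B11 rose by 1.38.

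Receptors and cofactors of the same pathway showed 5 of 16 genes higher (31.2%) and 7 lower (43.8%), near the background shares. NR3C1, the glucocorticoid receptor, read 0.747, 0.332 and 0.349 CPM in LNCaP and 17.6, 16.9 and 13.2 CPM in LNCaP95, a log2 fold change of 5.07 ± 0.23. The nuclear receptor cofactors NRIP1 and NCOA2 had log2 fold changes of -1.86 and -1.52. FOXA1 fell by 0.72 and HOXB13 by 0.74.

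Transcripts of glycolytic enzymes and of hypoxia-induced genes were mostly higher in LNCaP95. Hypoxia-inducible factor (HIF) is a transcription factor that is degraded when oxygen is ample and that raises glucose uptake, glycolysis and angiogenesis when it is stable. Of 15 HIF target genes tested, 13 were higher (86.7%, against 39.3% of all genes), 9 of them over 2-fold, and 1 was lower, with a median of 1.43. CA9, a cell-surface carbonic anhydrase, read 0.747, 1.24 and 0.960 CPM in LNCaP and 56.9, 49.8 and 50.4 CPM in LNCaP95, a log2 fold change of 5.71 ± 0.14. VEGFA, the angiogenic growth factor, went from 290, 296 and 296 CPM to 1294, 1186 and 1266 CPM, a rise of 2.09. The glucose transporter SLC2A1 rose by 1.69, the prolyl hydroxylase P4HA1 by 1.43, and ANKRD37 by 3.56. NDUFA4L2, a mitochondrial protein, fell by 0.47. The libraries of the lines were apart for each of the named HIF targets.

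ACGTG is 1 form of the core letters at which HIF binds DNA, so the promoters of these genes are of interest beside their rise. Only this form was searched. Of the 15 HIF targets tested, 11 had a promoter used here, matched by symbol to RefSeq (GRCh38.p14, from 250 bases before to 50 bases after the start), and 5 of the 11 (45.5%) held ACGTG on either strand. Among 9016 tested genes matched in the same way the share was 27.4%. Promoters on chromosomes 8 and Y were left out of both shares. The stretch around the match nearest the start is given below for the 4 of these 5 genes with the largest rises, with the motif as ACGTG or, on the other strand, CACGT in capitals. A match describes these letters only, and binding was not measured.
CA9: gtttccaatgCACGTacagcccgta
ANKRD37: gtgtttgtgtACGTGcggccgtggc
P4HA1: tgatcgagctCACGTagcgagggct
BNIP3: cacgcgccgcACGTGccacacgcac
The log2 fold change of BNIP3, a mitophagy receptor, was 0.66, and it rose from 367 ± 21.9 to 580 ± 27.2 CPM.

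Of 16 glycolytic enzymes, 14 were higher (87.5%) and 1 lower, with a median of 0.59 and a summed level of 11832 to 12170 CPM in LNCaP and 18248 to 19264 CPM in LNCaP95. HK2, the hexokinase that traps glucose in the cell, read 160, 162 and 144 CPM in LNCaP and 859, 775 and 800 CPM in LNCaP95, a rise of 2.38. PFKP, a phosphofructokinase isoform, rose by 0.85, lactate dehydrogenase LDHA by 0.53 and GAPDH by 0.30. Nuclear genes of oxidative phosphorylation changed less, with 38 of 75 higher (50.7%), 16 lower (21.3%) and a median of 0.10, and 9 of 13 mitochondrially encoded genes did not pass the test.

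The cholesterol synthesis list also leaned upward. Of its 22 genes tested, 17 were higher (77.3%, against 39.3% of all genes) and 3 lower, with a median of 0.39. INSIG1, a brake on sterol synthesis that sterol-responsive factors induce, rose by 1.32, from 160 ± 4.81 to 399 ± 21.8 CPM. FASN, fatty acid synthase, read 1996, 2169 and 2159 CPM in LNCaP and 3631, 2619 and 3352 CPM in LNCaP95, with the LNCaP95 libraries far apart from each other, and rose by 0.60 ± 0.073. ELOVL6, which elongates fatty acids, fell by 2.66. Counts among 14 fatty acid genes were 6 higher (42.9%) and 4 lower (28.6%), with a median of 0.12 and a higher share near the background.

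Cell cycle genes parted by phase. Of 24 genes of G1/S transition and DNA replication 20 were lower (83.3%, against 40.5% of all genes) and 2 higher, with a median of -0.51. MCM4, part of the replicative helicase, read 207, 198 and 210 CPM in LNCaP and 63.3, 64.8 and 72.2 CPM in LNCaP95, a log2 fold change of -1.62. CCNE2, an E-type cyclin, fell by 1.35 and CCND1 fell by 0.81, whereas CCND2, described above, was among the 2 that rose, by a fitted 8.29 from near 0. Of 24 G2/M and mitosis genes, by contrast, 22 were higher (91.7%, against 39.3%) and 2 lower, with a median of 0.73. CDC20, which activates the anaphase-promoting complex, went from 106, 103 and 103 CPM to 507, 435 and 508 CPM, a rise of 2.22. The mitotic kinase AURKA rose by 1.39, while the proliferation marker MKI67 rose by 0.38.

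The cytosolic ribosomal proteins, which build the translating ribosome, differed almost as a block. Of 83 tested, 81 were lower in LNCaP95 (97.6%, against 40.5% of all genes), 32 of them over 2-fold, and the median was -0.88. The list took 40934 to 42420 CPM of the LNCaP libraries and 21250 to 22066 CPM of the LNCaP95 libraries. RPL13A read 1509, 1452 and 1467 CPM in LNCaP and 394, 371 and 388 CPM in LNCaP95, a log2 fold change of -1.94. RPL28 fell by 2.04 and RPS12 by 1.74. The 2 that rose, RPL26L1 (0.44) and RPL10L (1.94), are paralogs that differ from the standard subunits. Ribosomal protein genes have many near-identical pseudogene copies, and how fragments shared with them were handled could alter these values.

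Ribosome biogenesis and MYC-related genes leaned the same way, with 13 of 17 lower (76.5%) and 3 higher and a median of -0.45. MYC itself read 389 ± 7.33 and 420 ± 1.38 CPM, a log2 fold change of 0.11 (adjusted p = 0.013), a call that was lost without LNCaP replicate 3. Leaving out the genes in regions of shifted medians, described further on, the ribosomal protein list kept a median of -0.85, with 69 of 71 lower.

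**Figure D2:**
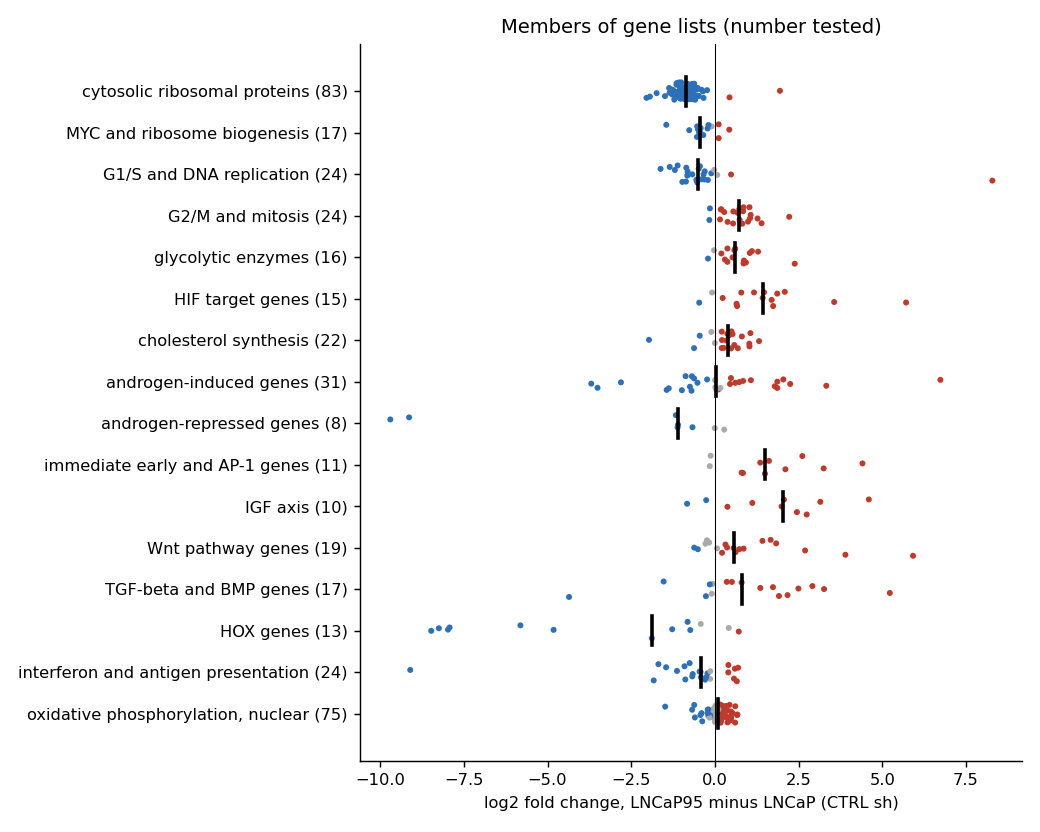
Log2 fold change of each tested member of 16 gene lists, LNCaP95 minus LNCaP, with a bar at the list median; red points were called higher, blue lower and grey neither. The ribosomal protein points cluster below 0, the mitosis, glycolysis and HIF points mostly above it, and the androgen-induced points spread on both sides.

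Immediate early genes, which encode AP-1 and related factors induced quickly by growth and stress signals, were higher for 9 of 11 (81.8%, against 39.3% of all genes) and lower for none, with a median of 1.49. FOS read 3.73, 1.99 and 1.40 CPM in LNCaP and 57.1, 42.2 and 49.5 CPM in LNCaP95, a log2 fold change of 4.41 ± 0.17. FOS passed the filter through LNCaP95 alone, so the filter favored its rise, and 6 of the 17 listed genes did not pass it. ATF3, a stress-induced AP-1 partner, rose by 2.11. In the stress and unfolded protein list 13 of 18 were higher (72.2%) and 3 lower. DDIT3, the factor CHOP of the integrated stress response, read 36.8, 36.8 and 37.1 CPM in LNCaP and 318, 301 and 306 CPM in LNCaP95, a rise of 3.06. Of 17 p53 targets 11 were higher (64.7%) and 4 lower, with rises of 1.73 for the sestrin gene SESN2, 1.38 for the cytokine GDF15 and 0.51 for the cell cycle inhibitor CDKN1A.

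Growth factor pathways differed by receptor. Of 10 genes of the insulin-like growth factor axis 8 were higher (80%, against 39.3% of all genes) and 2 lower, with a median of 2.03. IGF1R, the type 1 receptor, read 39.7, 42.8 and 42.2 CPM in LNCaP and 402, 359 and 345 CPM in LNCaP95, a rise of 3.15. Its adaptors IRS1 and IRS2 rose by 2.06 and 2.45, and the binding protein IGFBP3 by 2.74. EGFR went from 234 ± 8.56 to 941 ± 71.1 CPM, a rise of 2.01, and ERBB2 from 373 ± 7.65 to 122 ± 6.78 CPM, a log2 fold change of -1.61. For all of these the libraries of the 2 lines were apart. PIK3CD, a catalytic subunit of phosphoinositide 3-kinase, rose by 1.92.

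In the Wnt list 13 of 19 were higher (68.4%, against 39.3% of all genes) and 2 lower. FZD4, a frizzled receptor, read 14.7, 16.1 and 16.4 CPM in LNCaP and 241, 242 and 221 CPM in LNCaP95, a rise of 3.90, and the transcription factor LEF1 rose by 2.69. Of 17 TGF-beta and BMP genes 11 were higher (64.7%) and 4 lower, and the ligand TGFB1 rose by 5.22 from 0.293 ± 0.105 to 11.2 ± 3.29 CPM. The BMP-responsive inhibitors of differentiation ID1 and ID2 rose by 2.17 and 2.49. HES1, a Notch effector, rose by 4.63, while the Notch list as a whole was 6 higher (50%) and 4 lower (33.3%) of 12.

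HOX genes, which set position along the body axis, were lower for 10 of 13 tested (76.9%, against 40.5% of all genes) and higher for 1, with a median of -1.88 (also with the 4 members at 0 in LNCaP95 set at their bound). HOXA10 read 11.8, 10.2 and 12.2 CPM in LNCaP and 0.280, 0.174 and 0.0949 CPM in LNCaP95, and HOXC6 fell by 1.28. HOXA5 had 3.76 CPM in LNCaP and no count in LNCaP95, at least 45.5-fold lower. HOXA5, HOXA6, HOXB3 and HOXC10 passed the filter through LNCaP alone, at 2.58 to 3.76 CPM, so the filter favored falls. Of 39 HOX genes, 26 did not pass it. Over the 8 members also tested in the CPSF1 sh1 and sh2 libraries, the median was -1.05 with CTRL sh, -0.21 with sh1 and -0.14 with sh2. Interferon and antigen presentation genes were lower for 16 of 24 (66.7%) and higher for 6, with a median of -0.42.

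Mesenchymal genes did not move together, with 5 of 9 higher (55.6%) and 4 lower (44.4%). LOX, the lysyl oxidase that crosslinks collagen, read 2.24, 1.74 and 1.66 CPM in LNCaP and 322, 297 and 299 CPM in LNCaP95, a rise of 7.35. TWIST1, a mesenchymal transcription factor, had 3.92 ± 0.369 CPM in LNCaP and no count in LNCaP95, at least 47.4-fold lower. Fibronectin FN1 fell by 1.02, vimentin VIM rose by 0.23, and the epithelial cadherin CDH1 fell by 0.16. KRT19, a simple epithelial keratin, rose by 3.09. Of the markers of other cell types, COL1A1 rose by 1.45 and COL3A1 and VWF had log2 fold changes of -4.53 and -4.68.

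CPSF1, the factor the study depleted in its other libraries, differed between the lines at baseline. CPSF1 read 149, 148 and 151 CPM in LNCaP and 123, 93.9 and 113 CPM in LNCaP95, a log2 fold change of -0.44 ± 0.067 (adjusted p = 3.07e-06). The LNCaP95 libraries all lay below those of LNCaP, and they spread more. CPSF1 is a subunit of the complex that cleaves pre-mRNAs at the polyadenylation site, and of 14 cleavage and polyadenylation factors 6 were higher and 6 lower (42.9% each), near the background shares. CPSF2, its partner in that complex, fell by 1.48, from 192 ± 5.05 to 69.1 ± 4.98 CPM, whereas FIP1L1 rose by 0.97. In the mismatch repair list, MSH3 fell by 2.11 from 29.4 ± 1.49 CPM.

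The differences were not spread evenly over the genome. Medians of the tested genes ran from -0.36 on chromosome 14 and -0.34 on chromosome 9 to 0.23 on chromosome 1. The share called lower was 62.9% on chromosome 14 and 25.1% on chromosome 1. Windows of 31 adjacent tested genes with a median beyond 0.5 in either direction merged into 28 regions, 17 lower and 11 higher, holding 13.6% of 11759 placed genes. Inside these regions 26.7% of genes differed over 2-fold, against 18.6% outside. The regions were chosen for this shift, so the shares are a description. DNA copy number was not measured.

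Coordinates are those of GRCh37. The widest higher region on an autosome, chr2:45878484-85555548, held 133 genes with a median of 0.61, among them HK2. A lower region at chr14:21944756-33300567 held 69 genes with a median of -0.59, including SALL2 and EFS. Another at chr6:131456806-149398126 held 47 genes with a median of -0.54, including FUCA2, GPR126, UTRN and VTA1. IGF1R and ALDH1A3 lay within the same higher region, chr15:90895477-102264807 (median 0.54), with log2 fold changes of 3.15 and -3.51, and CPSF2 lay within a lower region at chr14:77972340-93695561 (median -0.44). In libraries that took no part in choosing them, the CPSF1 sh1 and sh2 libraries of the same lines, all 28 regions had medians of the same sign with both hairpins, and 19 of them were smaller in size with both. The chromosome 2 region had medians of 0.71 and 0.66, the chromosome 14 region with SALL2 had -0.56 and -0.67, and the chromosome 6 region had -0.39 and -0.37. The region at chr12:102789645-109525831 went from 0.53 to 0.10 and 0.29.

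The same pair of lines was also profiled under 2 CPSF1 hairpins, in libraries independent of those above. Of the 1100 genes over 2-fold higher in the CTRL sh libraries, 921 (83.7%) were called higher with both hairpins. Of the 1228 over 2-fold lower, 998 (81.3%) were called lower with both. Without the fold rule the shares were 63.9% and 68.2%. The background with sh1 was 79.4% of 12131 genes called, 39.1% higher and 40.2% lower, and with sh2 it was 78.1% of 12164 genes, 38.4% higher and 39.8% lower.

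Some lists held their level across these libraries and others did not. Over members tested in all 3 sets, the ribosomal protein median was -0.88 with CTRL sh, -1.03 with sh1 and -0.94 with sh2, and 81 of 83 were lower each time. HIF targets had medians of 1.43, 1.33 and 0.45, with 13, 15 and 12 of 15 higher. Immediate early genes had medians of 1.49, 0.58 and 0.43, with 9, 7 and 8 of 11 higher and 0, 2 and 2 lower. Glycolytic enzymes had medians of 0.59, 0.42 and 0.17, with 14, 11 and 9 of 16 higher and 1, 2 and 4 lower. Androgen-induced genes had medians of 0.04, -0.18 and -0.43, with 14, 8 and 8 of 31 higher and 13, 20 and 21 lower. The G1/S median was -0.51 with CTRL sh but 0.01 with sh1 and 0.07 with sh2, where 9 of 24 were lower in each. Androgen-repressed genes had medians of -1.11, 0.21 and 0.40, and cholesterol synthesis genes 0.39, -0.16 and -0.10. The last 3 lists thus had medians near 0 or of the opposite sign under CPSF1 knockdown. They were not alone: of 41 list medians, some near 0 with CTRL sh, 15 changed sign with sh1 and 12 with sh2. Medians of p53 targets were 0.49, -0.01 and -0.05, and those of the stress and unfolded protein list 0.42, 0.23 and -0.09. Keratins had medians of 0.96, -0.12 and 0.28. These differences between the sets of libraries were not tested for lists.

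Single genes gave both patterns. HPGD, higher by 6.73 with CTRL sh, was higher by 5.55 and 5.67 with the 2 CPSF1 hairpins, and RPS12 was at -1.74, -1.80 and -1.72. FOLH1 was at -1.11, -1.15 and -1.19. IGF1R was higher by 3.15 with CTRL sh and by 0.96 and 0.94 under knockdown. UGT2B17 turned from -1.17 to 0.76 and 1.16. KLK3 was higher by 0.84, 1.49 and 1.48.

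**Figure D3:**
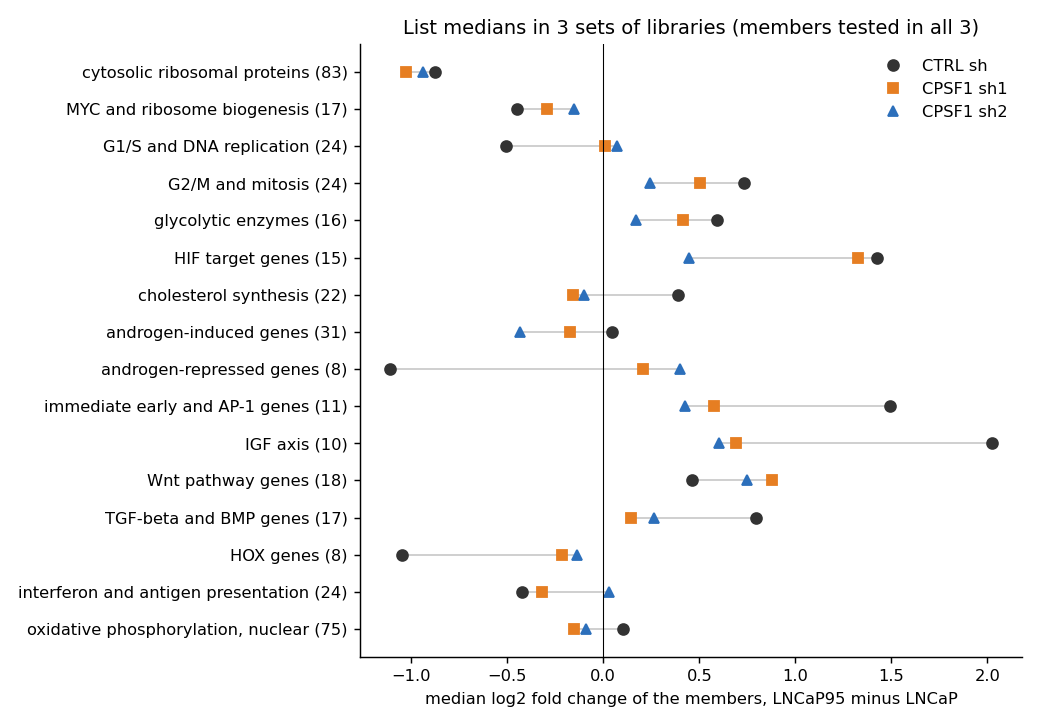
Median log2 fold change of 16 gene lists, LNCaP95 minus LNCaP, in the CTRL sh (circle), CPSF1 sh1 (square) and CPSF1 sh2 (triangle) libraries, over members tested in all 3 sets. The ribosomal protein medians lie between -1.03 and -0.88, whereas the androgen-repressed and IGF axis medians lie far from their CTRL sh values under knockdown.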

How the data were processed

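RNA-seq was made from LNCaP and LNCaP95 cells carrying CTRL sh, with 3 biological replicates a line. The authors aligned reads to GRCh37 with HISAT2 (2.1.0) and deposited fragment counts per gene, assigned with the reverse-stranded setting of featureCounts (Subread 2.0.3 in the submitters' processing notes) against an Ensembl annotation. These deposited counts, for every gene that exceeded 2 CPM throughout the 3 libraries of at least 1 line, were tested in edgeR (4.0.16, R 4.3.3) with TMM scaling and the quasi-likelihood test, on the 6 CTRL sh libraries without covariates, with Benjamini-Hochberg adjustment over all 11795 genes. The study's methods keep genes above 2 CPM in every condition, which was an alternative here. The procedure was tested on simulated data. Printed CPM are TMM-normalized. Totals of 10675551 to 14479943 set the precision. A gene at 0 was given the limit of 3 counts over the group, which covers counting error only, as do the ratio intervals.

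Named genes were the 15 largest rises and falls at 10 CPM or more in the higher line without overlap, the 10 largest at 50 CPM or more in both, and members of 41 gene lists. The comparison and lists were chosen with earlier results of these data known. Chromosome Y genes, XIST and some members and lists are not reported here. DESeq2 (1.42.0), other scalings and filters, a replicate block and each replicate left out were alternatives.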

Additional observations from a re-analysis of the deposited data

Results flagged for a closer look

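The line difference of 39 named genes changed by over 1 on the log2 scale between the CTRL sh libraries and the CPSF1 knockdown libraries, with an adjusted p below 0.05 for the difference itself in edgeR's quasi-likelihood test over all 18 libraries of the 2 lines. Over all genes, 59.5% of 11785 passed this test and 7.59% passed it by over 1. Genes with 3 counts or fewer in either line's CTRL sh libraries were left out. Many named genes were chosen for large differences in these same CTRL sh libraries. For them a smaller difference in other libraries was favored in advance, so the directions below are a description only. Each value below is the log2 line difference with CTRL sh minus that with CPSF1 hairpins.

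In 8 genes the line difference had opposite signs in the 2 settings: the value was 3.30 for ID1, 3.18 for ID2, -2.73 for NDUFA4L2, -2.22 for FN1, -2.13 for UGT2B17, -2.01 for UGT2B15, 1.31 for CDKN1A and 1.07 for TMPRSS2. The inhibitors of differentiation ID1 and ID2 were thus higher in LNCaP95 with CTRL sh and lower under knockdown, by 1.13 and 0.68 in the fitted mean of both hairpins.

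A rise in LNCaP95 that was smaller under knockdown gave 2.47 for ANKRD37, 2.45 for UNC80, 2.34 for BHLHE40, 2.26 for NUPR1 and 2.20 for IGF1R. The same pattern gave 2.09 for HES1, 1.86 for KRT19, 1.68 for ATF3, 1.66 for CDC20, 1.58 for DDIT3 and 1.54 for NDRG1. It also gave 1.53 for SIPA1L2, 1.36 for FZD4, 1.30 for IRS2, 1.30 for UGDH, 1.27 for SSFA2 and 1.21 for IRS1. Further such values were 1.19 for SLC2A1, 1.17 for SESN2, 1.16 for INSIG1, 1.11 for HPGD and 1.06 for FKBP5.

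A fall that was smaller under knockdown gave -2.61 for VWF, -2.42 for COL3A1, -2.03 for UGT2B10, -1.69 for ELOVL6 and -1.03 for FBXL17. A rise that was larger under knockdown gave -3.42 for CA9, -2.31 for CCND2, -1.41 for LEF1 and -1.003 for UGT2B11. CA9, CCND2 and UNC80, the last listed among the smaller rises above, had few counts in LNCaP. UNC80 had 5 counts over the LNCaP CTRL sh libraries. The adjusted p was 0.0024 for CA9, 0.047 for CCND2 and 0.00091 for UNC80.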

How the results depend on the processing

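The counts of higher and lower genes stayed within 1.5 times under every alternative run. Those over 2-fold higher ran from 793 to 1577, and those over 2-fold lower were 807 with genes above 2 CPM in all 6 libraries and 1893 with no expression filter, settings that test fewer and more genes. Leaving out 1 replicate gave 4422 to 4649 genes higher, 4565 to 4806 lower, 1097 to 1129 over 2-fold higher and 1230 to 1266 over 2-fold lower. DESeq2 called 75.5% of genes and library size alone 79.8%. Replicate numbers did not pair the samples: the deviations of same-numbered libraries correlated at -0.0066, -0.055 and -0.011, and the replicate block gave 79.6%. No called direction of a named gene turned in any alternative fitted on the CTRL sh libraries. With CPSF1 sh1 libraries in their place the log2 fold change turned to -0.12 for KLK2, -0.18 for TMPRSS2, 0.75 for UGT2B15, 0.76 for UGT2B17, -0.28 for GAPDH, 3.46 for NDUFA4L2, -0.86 for CDKN1A, -1.96 for ID1, -1.11 for ID2, 1.06 for FN1, -0.22 for FASN and -0.011 for RPL26L1. With CPSF1 sh2 libraries it turned to -0.16 for KLK2, -0.77 for TMPRSS2, -0.18 for NDRG1, 1.05 for UGT2B15, 1.16 for UGT2B17, -0.22 for GAPDH, 1.05 for NDUFA4L2, -0.76 for CDKN1A, -0.33 for ID1, -0.28 for ID2, 1.33 for FN1, -0.26 for FASN, -0.18 for INSIG1 and -0.27 for NUPR1. The cause was not tested. Leaving out the genes in regions of shifted medians, an alternative chosen after seeing the data, moved the HOX median most, from -1.88 to -1.05. At these depths genes under 2 CPM in both lines were not tested.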

Other observations

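Of gene families not described above, some had shares called that differed from those of all tested genes (39.3% higher and 40.5% lower) and others did not. Of 12 aldehyde dehydrogenases, enzymes that oxidize aldehydes, 8 were lower in LNCaP95 (66.7%) and 3 higher (25%), with a median of -0.56. Genes of androgen and steroid metabolism were lower for 9 of 14 (64.3%) and higher for 5 (35.7%). Of 6 keratins 5 were higher and 1 lower, and kallikreins were higher for 2 of 4 and lower for none. Solute carriers, a large family of membrane transporters, were lower for 89 of 187 (47.6%) and higher for 54 (28.9%), with a median of -0.14. Shares near the background were found for epithelial junction genes (45% higher and 40% lower of 20) and growth factor receptors (47.1% and 41.2% of 17). Among few genes each, estrogen-responsive genes were 3 higher and 2 lower of 7, and cancer-testis antigens 5 higher and 4 lower of 9. The S100 calcium-binding list, whose pattern also took in the unrelated S100PBP, was higher for 2 of 6 and lower for 4.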
